A study of Mus musculus with 9 samples.

Results

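The cerebella of Smo/Smo mice were compared with those of wild type mice at postnatal day 5, across 19147 genes. Each group had 3 mice of strain C57BL/6, with 1 array of total RNA per mouse, so the comparison used 6 of the 9 arrays of the study. The 3 other arrays came from SmoA2 mice of the same age, which entered the estimate of the spread and whose values are given for reference. The labels give brain as the tissue, and the series' design text gives cerebella. The mice carried no other stated allele and received no stated agent. In SmoA2 mice, and in the SmoA1 mice that the design text names, a mutant form of Smoothened is expressed from a fragment of the Neurod2 promoter that is active in granule neuron precursors. The labels do not spell out the Smo/Smo genotype. In published work the name is used for mice homozygous for the SmoA1 transgene, and the group was taken as that line. Each mouse has a code of its own, and the codes of the Smo/Smo mice begin differently from those of both other groups. An effect of genotype and an effect of where the mice came from cannot be told apart.

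Smoothened is a membrane protein of the Sonic hedgehog (Shh) pathway. In the absence of Shh its receptor Ptch1 holds Smoothened inactive, and when Shh binds, Smoothened moves into the primary cilium and the Gli transcription factors switch on targets such as Gli1, Ptch1 and Ccnd1. In the postnatal cerebellum, Purkinje cells release Shh, which drives granule neuron precursors of the outer layer to divide before they leave the cell cycle, migrate inwards and mature. Activated Smoothened in these precursors is used as a mouse model of medulloblastoma.

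The driver of the transgene and a gene called in the comparison are shown by their own promoters, from 250 bases before to 50 bases after the start of transcription, in the RefSeq table for GRCm38.p6, 5′ to 3′. Neurod2 lies on the minus strand, with this window at chr11:98329596-98329895, and the transgene's own fragment of the promoter was not at hand. Isl1, which encodes a LIM homeodomain transcription factor known from motor neurons and whose values are described later, lies on the minus strand with its window at chr13:116309639-116309938. Capitals mark copies of CAGATG and CAGCTG, forms of the E-box, the short site of basic helix-loop-helix factors such as Neurod2 and Atoh1. CAGATG is in the Neurod2 window and CAGCTG in the Isl1 window, and other forms of the E-box were not marked or searched.
Neurod2: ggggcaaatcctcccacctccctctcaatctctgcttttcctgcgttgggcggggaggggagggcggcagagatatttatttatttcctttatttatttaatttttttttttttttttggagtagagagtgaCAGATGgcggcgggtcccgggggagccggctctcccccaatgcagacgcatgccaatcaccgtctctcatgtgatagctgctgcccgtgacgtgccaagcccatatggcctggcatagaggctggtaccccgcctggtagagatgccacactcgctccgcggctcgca
Isl1: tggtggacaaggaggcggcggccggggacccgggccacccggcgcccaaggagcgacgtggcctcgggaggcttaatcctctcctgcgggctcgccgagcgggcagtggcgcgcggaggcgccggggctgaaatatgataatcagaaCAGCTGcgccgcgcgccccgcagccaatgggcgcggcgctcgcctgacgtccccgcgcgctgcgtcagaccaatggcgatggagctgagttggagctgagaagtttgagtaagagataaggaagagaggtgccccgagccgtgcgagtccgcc

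The Gli consensus GACCACCCA was searched in such promoters on both strands. It was found in 0 of 38 promoters of genes called higher (32 of 41 genes matched) and in 0 of 22 of genes called lower (18 of 30 matched), beside 0.220% of the 18646 promoters of the genes tested. The E-box CAGCTG lay in 8 of 38 promoters of higher genes (21.1%) and 5 of 22 of lower genes (22.7%), beside 16.1% of all. CAGATG lay in 7 (18.4%) and 6 (27.3%), beside 14.2% of all. None of these motifs contains another, the E-boxes were chosen after the data were seen, and a match in such a window describes the letters only.

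The array medians lay between 91 and 95.1, and arrays correlated with one another at 0.994 to 0.998 across probe sets. By Xist and the Y-linked genes, wild type held 1 male (replicate 2) and 2 females, and Smo/Smo held 2 males (replicates 2 and 3) and 1 female. Y-linked probe sets in the female mice read 2.23 to 5.57 (log2 intensity), which is taken as an indication of background, and a mean in that range is only an upper limit of the level. Markers of the cerebellum were bright in all 6 arrays, among them Zic1 of granule cells at 13.17 to 13.25 and Calb1 of Purkinje cells at 12.89 to 13.04. Of the forebrain markers, Emx1, Emx2 and Dlx1 lay in the background range in all 6, while Neurod6 read 9.29 to 9.44. Wild type replicate 3 stood apart in choroid plexus genes, with Ttr at 4.95 against 11.39 and 11.26 in the other wild type arrays. Because the tissue was taken whole, fewer cells of a type and less RNA per cell cannot be told apart.

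In Smo/Smo, 41 genes were called higher and 30 lower than in wild type by limma at a Benjamini-Hochberg adjusted p under 0.05, which is 0.371% of the genes tested (0.214% higher and 0.157% lower). Most changes were small. The median size among the 71 genes was 0.659 on the log2 scale, 20 of them changed by less than 0.5, and 11 rises and 5 falls reached 2-fold. The 3 Smo/Smo arrays lay wholly above or below the 3 wild type arrays in all 71 genes, as they did in 15.9% of all genes. At an unadjusted p under 0.05, 936 genes were higher (4.89%) and 743 lower (3.88%). Calls were most frequent at middle levels, with 0.710% of genes at means of 7.49 to 9.82 and 0.104% at 2.28 to 4.84. The median standard errors at these levels were 0.079 and 0.113. At means of 9.82 to 14.37, where the median standard error was 0.066, 0.209% of genes were called. A group mean lay in the background range for 13 called genes, and both means did for 7.

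The number of calls moved with single arrays. Leaving out wild type replicate 1, 2 or 3 gave 25, 21 or 51 calls. Leaving out Smo/Smo replicate 1, 2 or 3 gave 37, 30 or 25, and leaving out SmoA2 replicate 1, 2 or 3 gave 56, 56 or 65. The calls of 19 genes were made in all 9 fits with 1 array left out: Sowaha, Plscr2, Diaph3, Isl1, Thg1l, Tmem254a, Txnip, Clec16a, Adamts14, Mettl17 and Col4a4 among the rises, and Ctr9, Wdfy1, Pnma2, A730094K22Rik, Impg2, Efcab7, Tmem260 and Acin1 among the falls. The other 52 were lost in at least 1 of those fits, and all 71 kept their direction.

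**Figure D1:**
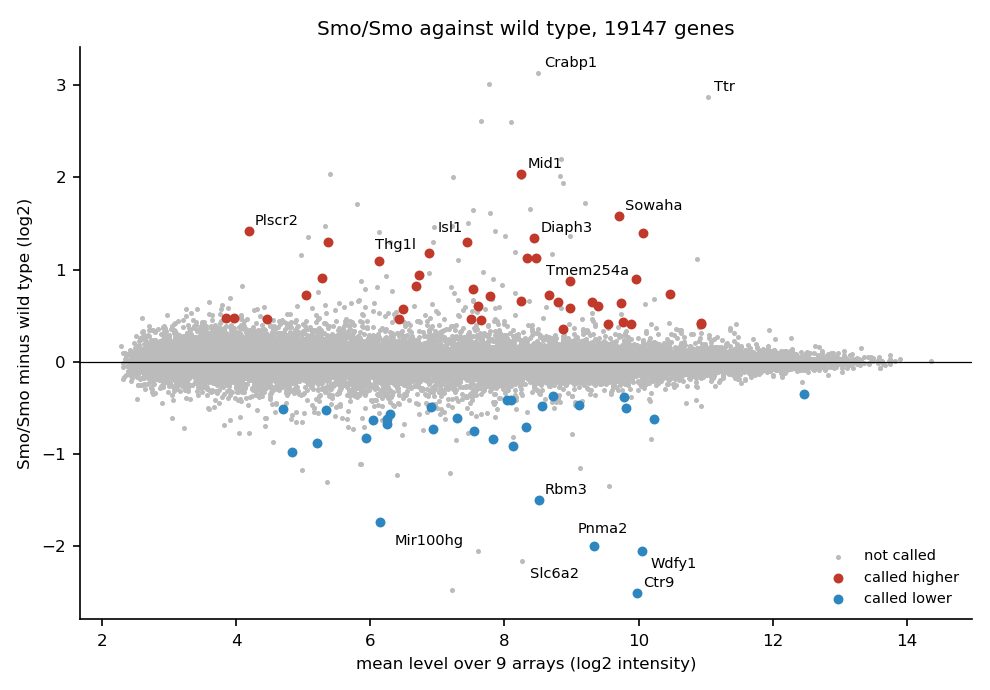
Difference between Smo/Smo and wild type (vertical axis, log2) against the mean level of each of 19147 genes over 9 arrays (horizontal axis, log2 intensity); red and blue points are the 41 genes called higher and the 30 called lower. Ctr9, Wdfy1 and Pnma2 lie lowest among the called genes, at -2.50, -2.05 and -1.99, while Crabp1 at 3.13 and Ttr at 2.87 were not called.

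The largest falls among the called genes were in 3 whose levels in SmoA2 stayed near those of wild type. Ctr9 encodes a subunit of the PAF complex, which travels with RNA polymerase II during elongation. It read 10.73, 10.93 and 10.86 (log2 intensity) in wild type, 8.39, 8.29 and 8.33 in Smo/Smo, and 10.72, 10.77 and 10.80 in SmoA2. All 3 Smo/Smo arrays thus lay far below the other 6 on this probe set. The fall there was 5.68-fold (-2.50 ± 0.07 in log2 with its SE, n = 3 mice in each group, limma adjusted p = 4.53e-07). The 2 other Ctr9 probe sets, both above the background range, were at -0.21 and -0.10 and not called. Wdfy1, which encodes an endosomal protein with a FYVE domain and WD repeats, read 10.74, 10.64 and 10.85 in wild type, 8.60, 8.77 and 8.71 in Smo/Smo, and 10.75, 10.71 and 10.74 in SmoA2. It fell 4.14-fold (-2.05 ± 0.07, adjusted p = 2.56e-06). Pnma2, a neuronal gene of the paraneoplastic Ma antigen family, read 9.996, 9.98 and 10.03 in wild type, 8.01, 7.87 and 8.14 in Smo/Smo, and 9.99, 10.12 and 9.91 in SmoA2. It fell 3.98-fold (-1.99 ± 0.08, adjusted p = 8.24e-06). In each of these genes the SmoA2 arrays overlapped the wild type arrays. SmoA2 exceeded Smo/Smo by 2.43, 2.04 and 2.00, a comparison in which 2.56% of all genes were called.

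Further falls were smaller. The clone-named gene A730094K22Rik, chosen after its values were seen, averaged 6.87 in wild type and read 4.93, 5.26 and 5.21 in Smo/Smo, where its mean lay in the background range, so it was at least 3.34-fold lower (adjusted p = 0.000113). Rbm3 encodes an RNA-binding protein that is induced by mild cold. It read 9.39, 8.96 and 8.74 in wild type, 7.24, 7.70 and 7.67 in Smo/Smo, and 9.30, 8.79 and 8.80 in SmoA2. Its groups did not overlap, but its values spread more than those of Ctr9, and the fall of 2.82-fold (-1.50 ± 0.20, adjusted p = 0.0195) was not called without any one of wild type replicates 1 and 2 and Smo/Smo replicates 1 to 3 (adjusted p up to 0.095). Efcab7 encodes an EF-hand protein that anchors the Evc and Evc2 proteins at the base of the cilium, where they act in Hedgehog signalling. It read 8.06, 8.14 and 8.15 in wild type, 7.16, 7.31 and 7.38 in Smo/Smo, and 8.21, 8.02 and 8.02 in SmoA2, a fall of 1.78-fold (-0.84 ± 0.08, adjusted p = 0.00329). Impg2, a proteoglycan gene of the retina, read 5.75, 5.55 and 5.55 in wild type and 4.57, 4.76 and 4.88 in Smo/Smo, at least 1.84-fold lower (adjusted p = 0.00429), with SmoA2 at 5.25 in each array.

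Fgf15 and Klb, a signal and a co-receptor of a hormone pathway, were both lower. Whether that pathway acts in this tissue was not tested. Fgf15 encodes a fibroblast growth factor that is made in the embryonic brain and later acts as a gut hormone. It read 7.99, 7.91 and 7.99 in wild type and 7.12, 7.47 and 7.05 in Smo/Smo, a fall of 1.68-fold (-0.75 ± 0.11, adjusted p = 0.0285). In SmoA2 it read 7.42, 7.60 and 7.33 (-0.51 against wild type, adjusted p = 0.0495, a comparison with 2.69% of genes called), and the mutants differed by 0.24 (adjusted p = 0.389). Klb encodes beta-Klotho, the co-receptor through which Fgf15 acts in liver, and was chosen after its values were seen. It read 7.55, 7.46 and 7.52 in wild type and 6.94, 6.82 and 6.94 in Smo/Smo (-0.61 ± 0.08, adjusted p = 0.0193), and 7.61, 7.34 and 7.39 in SmoA2. The call of Fgf15 was lost without any one of wild type replicates 1 to 3, SmoA2 replicates 1 and 3 and Smo/Smo replicates 1 and 3, with an adjusted p up to 0.128, and that of Klb without any one of the 6 arrays compared, with an adjusted p up to 0.0918.

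Other falls were smaller or close to background. Myh8, a myosin heavy chain gene of perinatal muscle, was at -0.67 ± 0.11 (adjusted p = 0.0435) and Wdcp, a gene for a protein with WD repeats, at -0.63 ± 0.08 (adjusted p = 0.0193). The adenosine receptor gene Adora3 was lower by the fit (-0.97 ± 0.16, adjusted p = 0.0476), but both of its group means lay in the background range, so no fold is given. Clec4a1, a C-type lectin receptor gene of myeloid cells, and Ptger3, a prostaglandin receptor gene, were chosen after their values were seen because they were also low in SmoA2. Clec4a1 read 6.68, 6.71 and 6.65 in wild type, 6.17, 6.01 and 6.17 in Smo/Smo, and 6.12, 5.97 and 6.12 in SmoA2, so that both mutants lay below all wild type arrays. Its fall in Smo/Smo was 1.48-fold (-0.56 ± 0.07, adjusted p = 0.0141), and Ptger3 was at least 1.44-fold lower (adjusted p = 0.0393). Of these 5 calls none was made in all fits with 1 array left out, with adjusted p up to 0.158 for Myh8, 0.0918 for Wdcp, 0.204 for Adora3, 0.0831 for Clec4a1 and 0.168 for Ptger3. Each of them was lost without wild type replicate 1 and without Smo/Smo replicate 3, among others.

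**Figure D2:**
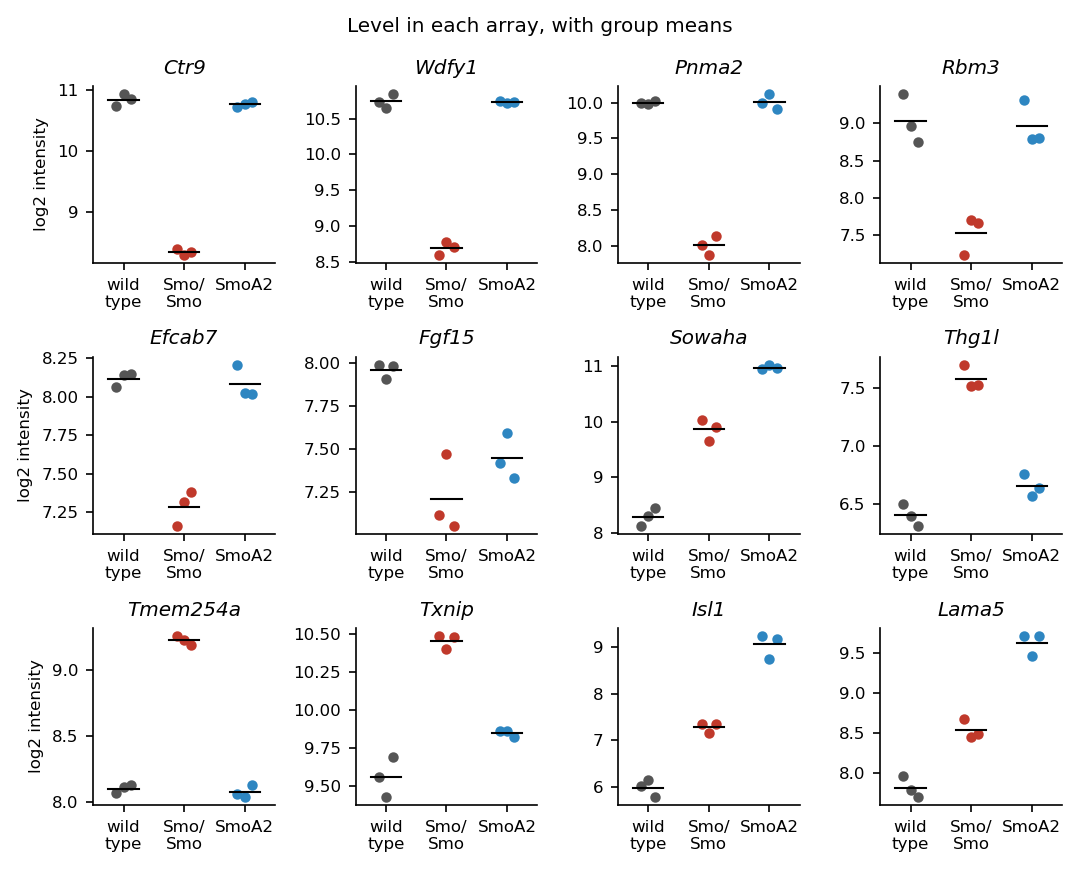
Level of 12 genes (log2 intensity, vertical axes that do not start at 0) in each of the 3 wild type, 3 Smo/Smo and 3 SmoA2 arrays; bars are group means. The Smo/Smo points of Ctr9, Wdfy1 and Pnma2 lie apart from both other groups, as those of Thg1l and Tmem254a do above them, while Sowaha, Isl1 and Lama5 lie between wild type and SmoA2.

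Several of the largest rises among the called genes were not called in SmoA2. Thg1l encodes the guanylyltransferase that completes histidine tRNA. It read 6.50, 6.40 and 6.31 in wild type, 7.70, 7.52 and 7.53 in Smo/Smo, and 6.76, 6.57 and 6.64 in SmoA2. No array of another group reached the Smo/Smo level, and the rise was 2.27-fold (1.18 ± 0.08, adjusted p = 0.000355), against 0.25 ± 0.08 in SmoA2 (adjusted p = 0.175). Txnip, which encodes an inhibitor of thioredoxin that also limits glucose uptake, read 9.56, 9.43 and 9.69 in wild type, 10.49, 10.40 and 10.48 in Smo/Smo, and 9.86, 9.86 and 9.82 in SmoA2. It rose 1.86-fold (0.90 ± 0.07, adjusted p = 0.00109), and SmoA2 minus Smo/Smo was -0.61 (adjusted p = 0.00349). All 3 SmoA2 arrays also lay above all wild type arrays, by 0.29 ± 0.07 (adjusted p = 0.08). Clec16a, a gene of autophagy, read 8.64, 8.73 and 8.62 in wild type, 9.51, 9.64 and 9.46 in Smo/Smo, and 8.56, 8.74 and 8.85 in SmoA2, a rise of 1.83-fold (0.87 ± 0.09, adjusted p = 0.00387). Hyou1, a chaperone gene of the endoplasmic reticulum, read 8.12, 7.99 and 7.84 in wild type, 8.83, 9.26 and 9.23 in Smo/Smo, and 7.79, 8.08 and 7.83 in SmoA2. It rose 2.18-fold (1.12 ± 0.13, adjusted p = 0.0114). When wild type replicate 2 or the third Smo/Smo array was left out, the call ended, with adjusted p of at most 0.0697.

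The largest rise among the called genes was in Mid1, the X-linked gene of a microtubule-bound ubiquitin ligase. It read 7.80, 7.72 and 7.25 in wild type, 9.63, 9.29 and 9.96 in Smo/Smo, and 7.66, 7.87 and 7.04 in SmoA2, 4.10-fold higher in Smo/Smo on this probe set (2.04 ± 0.24, adjusted p = 0.012). The Smo/Smo arrays themselves made this the probe set with the highest mean, since the other one was brighter in wild type (7.86 against 7.59) and in SmoA2 (7.64 against 7.52), so its adjusted p is no independent test of the gene. The other probe set was at -0.09. As for Hyou1, leaving out wild type replicate 2 or the third Smo/Smo array ended the call, with adjusted p of at most 0.0691. Plscr2, a phospholipid scramblase gene, had an adjusted p of 0.00429 with both group means in the background range. Rd3l, a little-described gene, read 5.05, 4.78 and 4.67 in wild type and 5.68, 6.00 and 5.53 in Smo/Smo, at least 1.87-fold higher (adjusted p = 0.0239), but its call held only without wild type replicate 1 or without the third Smo/Smo array, and leaving out any of the 7 other arrays ended it, with adjusted p of at most 0.121.

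A further set of rises lay between wild type and SmoA2. Sowaha, an ankyrin repeat gene, read 8.12, 8.30 and 8.44 in wild type, 10.04, 9.66 and 9.90 in Smo/Smo, and 10.95, 11.03 and 10.97 in SmoA2. The 3 groups did not overlap, the rise in Smo/Smo was 2.99-fold (1.58 ± 0.11, adjusted p = 0.000355), and SmoA2 exceeded Smo/Smo by 1.11 (adjusted p = 0.00152). Isl1 read 6.01, 6.15 and 5.79 in wild type, 7.34, 7.16 and 7.34 in Smo/Smo, and 9.23, 8.75 and 9.18 in SmoA2. Its rise in Smo/Smo was 2.45-fold (1.29 ± 0.14, adjusted p = 0.00591), and SmoA2 exceeded Smo/Smo by 1.78 (adjusted p = 0.000479). Adamts14 encodes a protease that trims procollagen. It read 7.53, 7.42 and 7.39 in wild type, 8.07, 8.10 and 8.15 in Smo/Smo, and 9.25, 9.05 and 9.23 in SmoA2, a rise of 1.58-fold in Smo/Smo (0.66 ± 0.07, adjusted p = 0.00603). SmoA2 exceeded it by 1.06 (adjusted p = 0.000182).

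Lama5, Tbata and Lrig3, chosen after their values were seen, had the same order. Lama5, a laminin chain gene of basement membranes, read 7.96, 7.79 and 7.70 in wild type, 8.68, 8.46 and 8.49 in Smo/Smo, and 9.71, 9.47 and 9.72 in SmoA2 (0.72 ± 0.10 in Smo/Smo, adjusted p = 0.0201). Tbata, a gene named for its expression in thymus, brain and testis, was at 0.63 ± 0.08 in Smo/Smo (adjusted p = 0.0147) and 1.19 in SmoA2, and the membrane protein gene Lrig3 at 0.41 ± 0.06 (adjusted p = 0.0195) and 0.99. The mutants differed in each, by 1.09, 0.56 and 0.58 with adjusted p of 0.00113, 0.00905 and 0.00137. Without single arrays, among them wild type replicates 2 and 3 and each Smo/Smo array, the calls in Smo/Smo were lost, with adjusted p up to 0.111 for Lama5, 0.0779 for Tbata and 0.096 for Lrig3.

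In other rises the mutants lay at like levels. Grin2c, the NMDA receptor subunit gene that granule neurons turn on as they mature, read 7.34, 7.30 and 7.36 in wild type, 8.07, 8.12 and 7.95 in Smo/Smo, and 7.96, 7.83 and 8.13 in SmoA2. It rose 1.64-fold in Smo/Smo (0.71 ± 0.08, adjusted p = 0.0102), and SmoA2 minus Smo/Smo was -0.07 (adjusted p = 0.767), which does not show that the levels were equal. Pcp4l1, a relative of the calmodulin regulator Pcp4, read 10.15, 10.05 and 9.85 in wild type, 10.86, 10.78 and 10.62 in Smo/Smo, and 10.51, 10.63 and 10.83 in SmoA2, a rise of 1.67-fold (0.74 ± 0.11, adjusted p = 0.0255). The matrix genes Tgfbi and Fbln2 and the Ras regulator gene Rasa4, chosen after their values were seen, stood at 0.65, 0.36 and 0.61 in Smo/Smo and 0.85, 0.44 and 0.60 in SmoA2. Leaving out wild type replicate 1, replicate 2 or the second Smo/Smo array ended the call of Grin2c, with adjusted p of at most 0.0697. Those of Pcp4l1, Tgfbi, Fbln2 and Rasa4 ended when wild type replicate 2, the first or the second Smo/Smo array was left out, among others, with adjusted p of at most 0.128, 0.155, 0.138 and 0.109.

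**Figure D3:**
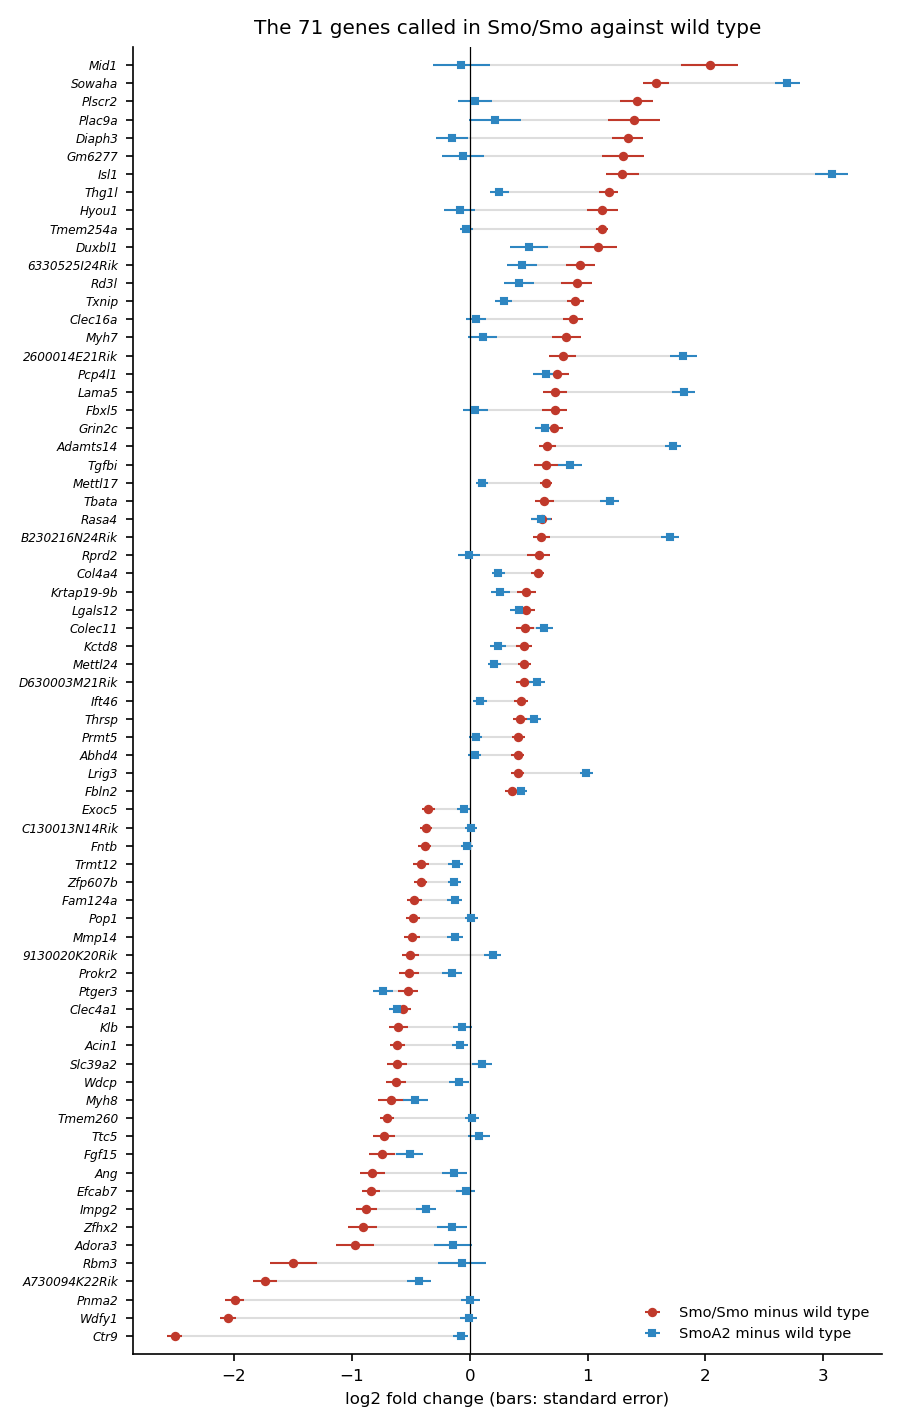
Log2 fold change against wild type of each of the 71 genes called in Smo/Smo, in Smo/Smo (red circles) and in SmoA2 (blue squares), with standard errors; both use the same 3 wild type arrays. The falls from Ctr9 to Efcab7 lie near 0 in SmoA2 except A730094K22Rik at -0.43 and Impg2 at -0.37, whereas Sowaha and Isl1 lie further from 0 in SmoA2, at 2.70 and 3.07.

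Other probe sets of the called genes were read as a check. Of the 71 genes, 21 had more than 1 probe set, and another probe set was called in the same direction in 1 of them, Wdfy1, at -1.39 ± 0.11 (adjusted p = 0.000987 over all 24478 probe sets with a single symbol, 0.351% of which were called). In 7 of the 20 others, all further probe sets lay in the background range. The other Ctr9 probe sets were at -0.21 ± 0.08 (adjusted p = 0.476) and -0.10 ± 0.11 (0.876), so its fall was seen on 1 of 3. The other Rbm3 probe set was at -1.08 ± 0.24 (adjusted p = 0.158), that of Tbata at 0.57 ± 0.10 (0.0657), and those of Tmem260 at -0.59 ± 0.17 and -0.21 ± 0.11. The other Mid1 probe set, with a difference of -0.09 ± 0.47, was the brighter one outside Smo/Smo. The other Diaph3 probe sets were at -0.02, -0.11 and -0.19, the last of them in the background range. Ift46, a gene of transport within cilia that was chosen after its values were seen, was called in opposite directions by its probe sets, at 0.43 ± 0.06 (adjusted p = 0.0235) and -1.01 ± 0.15 (0.0252). No probe sequences were at hand, so whether the probe sets of a gene read different transcripts was not tested.

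The calls were concentrated on chromosome 14, which held 18 of the 71 (25.4%), 8 higher and 10 lower. This is 2.59% of its 696 measured genes, against 0.371% of all genes and at most 0.656% on any other chromosome (chromosome 12). Chromosomes were compared after the values were known, and no test was made. Taken by order along the chromosome in GRCm38.p6, 3 rises stood close together: Plac9a, Tmem254a and Duxbl1 at places 86, 87 and 89 of the 696. Cphx1 at place 88, a homeobox gene named here for its place, was at 0.50 (adjusted p = 0.59) and not called. Tmem254a read 8.07, 8.11 and 8.13 in wild type, 9.26, 9.23 and 9.19 in Smo/Smo, and 8.06, 8.04 and 8.13 in SmoA2. The Smo/Smo arrays lay well apart from the other 6, a rise of 2.18-fold (1.12 ± 0.05, adjusted p = 2.36e-05). Plac9a read 9.58, 9.62 and 9.38 in wild type and 11.31, 10.84 and 10.61 in Smo/Smo, and Duxbl1, a double homeobox gene, 5.57, 5.70 and 5.55 against 6.77, 6.56 and 6.77 (1.39 ± 0.22 and 1.09 ± 0.16, adjusted p = 0.0393 and 0.0255). Both of these calls ended when any of the 6 arrays compared, or the second SmoA2 array, was left out, with adjusted p of at most 0.138 and 0.115. Close copies of these 3 genes lie beside them in the mouse genome, and which copies the probe sets read was not tested.

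A larger cluster ran from place 240 to place 345. Its first 4 called genes, Tmem260, Exoc5, Ttc5 and Ang at places 240 to 283, all fell, and from Mettl17 at place 295 onwards rises and falls were mixed. Among the falls were Tmem260, a mannosyltransferase gene, which read 8.61, 8.56 and 8.49 in wild type and 7.83, 7.87 and 7.85 in Smo/Smo (-0.70 ± 0.06, adjusted p = 0.00159), and Acin1, a splicing-related gene of chromatin condensation, which read 10.45, 10.44 and 10.48 against 9.76, 9.88 and 9.89 (-0.61 ± 0.07, adjusted p = 0.00568). The neighbours Mettl17 and Slc39a2, at places 295 and 296, went in opposite directions. Mettl17, a gene of mitochondrial ribosome assembly, read 8.55, 8.53 and 8.55 in wild type, 9.16, 9.20 and 9.20 in Smo/Smo, and 8.62, 8.65 and 8.67 in SmoA2 (0.64 ± 0.05, adjusted p = 0.00087), while the zinc transporter gene Slc39a2 read 6.58, 6.30 and 6.39 against 5.81, 5.69 and 5.92 (-0.62 ± 0.09, adjusted p = 0.0207). Likewise Myh7, a cardiac myosin heavy chain gene, was at 0.82 ± 0.12 (adjusted p = 0.0286) and Zfhx2, a zinc finger homeobox gene nearby, at -0.91 ± 0.12 (0.0202).

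The other falls in this stretch were Ang, a secreted ribonuclease gene (at least 1.77-fold, adjusted p = 0.0183), Ttc5, a gene of tubulin mRNA control (-0.73 ± 0.09, adjusted p = 0.0147), Mmp14, a membrane-bound matrix protease gene (-0.49 ± 0.07, 0.0239), and Exoc5, an exocyst subunit gene (-0.35 ± 0.06, 0.0435). The other rises were Prmt5, which encodes an arginine methyltransferase (0.41 ± 0.05, adjusted p = 0.0174), and the lipase gene Abhd4 (0.41 ± 0.06, 0.0198). Further along lay Fam124a (-0.47 ± 0.06, adjusted p = 0.0198), Pnma2, and Diaph3, an actin-nucleating formin gene. Diaph3 read 8.09, 7.97 and 8.09 in wild type, 9.59, 9.55 and 9.02 in Smo/Smo, and 7.98, 7.88 and 7.83 in SmoA2 (1.34 ± 0.14, adjusted p = 0.00429). In SmoA2 the 18 genes lay between -0.15 and 0.50 of wild type, the highest being Duxbl1. Of the 18, 6 were called in every fit with 1 array left out: Tmem254a, Tmem260, Mettl17, Acin1, Pnma2 and Diaph3. Calls of the others in the stretch were lost without wild type replicate 1, among other arrays, with adjusted p up to 0.188 for Exoc5 and 0.142 for Myh7. Each gene was read from 1 probe set in these fits. The other Acin1 probe set, above the background range, was at -0.14 ± 0.10 (adjusted p = 0.769 over all probe sets). No other probe set of Tmem260 or Diaph3 was called.

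**Figure D4:**
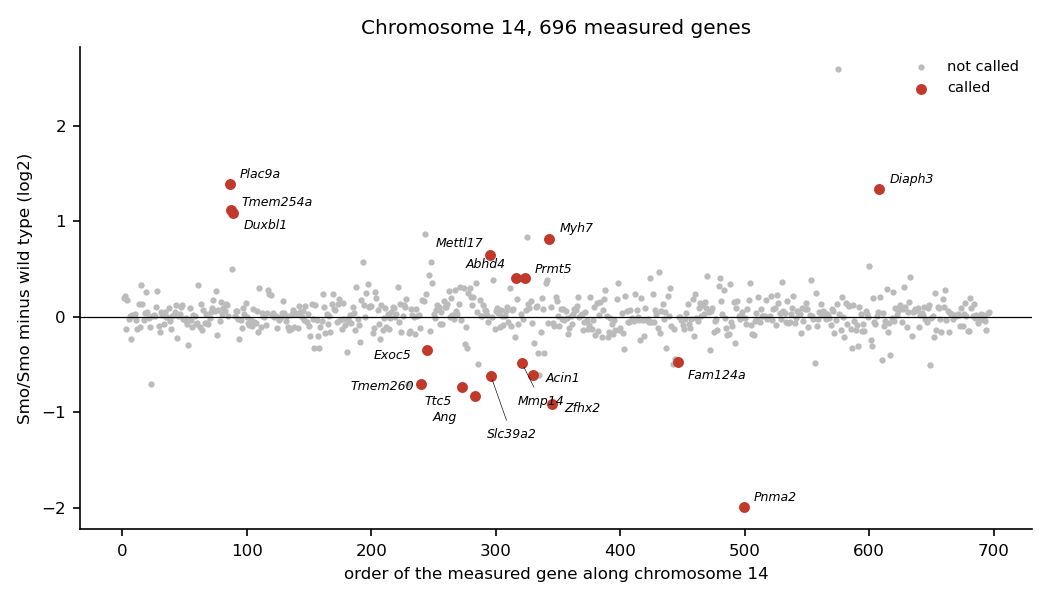
Difference between Smo/Smo and wild type (vertical axis, log2) of the 696 measured genes of chromosome 14 in their order along the chromosome (horizontal axis); red points are the 18 called genes. Plac9a, Tmem254a and Duxbl1 stand together above 1, falls run from Tmem260 to Ang, and rises and falls are mixed from Mettl17 to Zfhx2.

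Genes of the Shh pathway were read next, as lists of members described by counts and medians. No member was called among the 17 measured targets or the 21 measured components, where 0.371% of all genes were called. The target median was 0.043 and the component median -0.027, beside 0.006 over all genes, and 3 targets were higher at an unadjusted p under 0.05. Gli1, the transcription factor most used as a readout, read 9.78, 9.72 and 9.64 in wild type and 9.76, 9.77 and 9.85 in Smo/Smo, with SmoA2 at 10.33, 10.10 and 10.21. Ptch1, the Shh receptor, read 13.12, 13.02 and 13.09 in wild type and 13.13, 13.15 and 13.18 in Smo/Smo, with SmoA2 at 13.33, 13.34 and 13.33. Gli1 thus overlapped between wild type and Smo/Smo. Ptch1 was higher by 0.08 ± 0.05 in arrays that did not overlap, as in 15.9% of all genes. Neither was called (adjusted p = 0.825 and 0.741). Smo read 8.70, 8.62 and 8.79 in wild type and 8.66, 8.69 and 8.66 in Smo/Smo. Whether its probe set matches the transgene was not tested.

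The targets with the smallest p were Cdk6, Ccnd1 and Sfrp1. Cdk6, a cell-cycle kinase gene, read 11.47, 11.53 and 11.57 in wild type, 11.87 in each Smo/Smo array, and 12.51, 12.37 and 12.42 in SmoA2 (0.34 ± 0.06 in Smo/Smo, adjusted p = 0.053). The other Cdk6 probe sets were also higher in Smo/Smo, at 0.185 to 0.575, the lowest of them in the background range. None was called over all probe sets (adjusted p of at least 0.115). Ccnd1, the cyclin D1 gene that Shh induces in granule precursors, read 9.82, 9.46 and 9.79 in wild type, 10.37, 10.40 and 10.33 in Smo/Smo, and 10.66, 10.33 and 10.96 in SmoA2 (0.68 ± 0.15, adjusted p = 0.161). Its other probe set was at 0.55 ± 0.07 and called over all probe sets (adjusted p = 0.0182). Sfrp1, which encodes a secreted Wnt inhibitor, was at 0.26 ± 0.08 (adjusted p = 0.368). In these 3 genes, picked by their p, Smo/Smo lay above all wild type arrays without passing the test on the probe sets used. The groups did not overlap in 15.9% of all genes. Of the components, Scube2, a gene of Shh release, was the farthest from 0, at -0.36 ± 0.08 (adjusted p = 0.152).

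Calls in the granule neuron lineage were read beside the 0.371% of all genes called, a share at which short lists mostly hold none. None of 16 progenitor genes (median -0.004), 29 cell cycle genes (-0.027) or 15 genes of early postmitotic granule neurons (-0.054) was called. Among progenitor genes the transcription factor Barhl1 read 10.59, 10.63 and 10.64 in wild type and 10.87, 11.02 and 10.88 in Smo/Smo (0.30 ± 0.06, adjusted p = 0.111), and Atoh1, which defines the lineage, was at 0.12 ± 0.07 (adjusted p = 0.713). Cdc6, which loads the replicative helicase, was at -0.38 ± 0.08 (adjusted p = 0.133), and E2f2 at -0.27 ± 0.07 (0.232). Neurod2, whose promoter fragment drives the transgenes, read 12.48, 12.57 and 12.47 in wild type and 12.43, 12.47 and 12.45 in Smo/Smo (-0.06 ± 0.05, adjusted p = 0.839). Of 16 genes of maturing granule neurons, Grin2c and Pcp4l1 were called higher, and the median was 0.107. Gabra6, the GABA receptor subunit gene of mature granule neurons, read 7.33, 7.46 and 7.68 in wild type and 8.16, 7.92 and 8.38 in Smo/Smo (0.66 ± 0.38, adjusted p = 0.693). Without wild type replicate 3 the median was 0.033, with 1 member called.

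Markers of other cell types gave no call with all arrays, where 0.371% of all genes were called, but some lists lay to one side. All 11 choroid plexus markers were above 0, as were 10000 of all 19147 genes, and the median was 1.73. None overlapped between the groups, where 15.9% of all genes did not overlap. Their summed linear intensity was 6609, 6320 and 2051 in wild type and 10553 to 12141 in Smo/Smo. SmoA2 was also higher than wild type, with sums of 8790 to 10392 and a median of 1.427. Without wild type replicate 3, the array with low Ttr, the Smo/Smo median was 0.989. In that fit 8 of the 11 were called in Smo/Smo, where 0.266% of all genes were called. Ttr, which encodes the thyroid hormone carrier of the choroid plexus, was then at 0.75 (adjusted p = 0.0129), Clic6, a chloride channel gene, at 1.23 (0.00552), and Sostdc1, a BMP inhibitor gene, at 1.05 (0.00219). With all arrays Ttr was at 2.87 ± 1.41 (adjusted p = 0.622), so this 1 array set both the size and the spread. Whether the choroid plexus level has a part in other differences between the groups was not tested.

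Of 15 markers of microglia and macrophages, 14 were below 0, as were 9147 of all 19147 genes, and the median was -0.214. At an unadjusted p under 0.05, 3 of them were lower, beside 3.88% of all genes. The summed linear intensity was 5673 to 6162 in wild type and 4888 to 5541 in Smo/Smo. Fcrls, a microglial Fc receptor-like gene, read 8.17, 8.33 and 8.28 in wild type and 7.96, 7.73 and 7.95 in Smo/Smo (-0.38 ± 0.12, adjusted p = 0.334). Csf1r, which encodes the growth factor receptor that microglia need to survive, was at -0.24 ± 0.08 (adjusted p = 0.382), and Tmem119 was the 1 marker above 0, at 0.07. Clec4a1, the myeloid lectin gene called lower, moved in the same direction in Smo/Smo. In SmoA2 it was at -0.615 against wild type, while the list median there was 0.106. The part of this list in the call of Clec4a1 was not tested.

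Markers of the meninges had a median of -0.061, with summed linear intensity of 32027 to 32446 in wild type and 29795 to 30553 in Smo/Smo. Among them Foxd1 was at -0.33 ± 0.09 (adjusted p = 0.295), and Crabp2, a carrier of retinoic acid, at -0.47 ± 0.16 (0.418), while Islr was at 0.17 ± 0.06 (0.488). At an unadjusted p under 0.05, 3 of the 19 members were lower and 2 higher, beside 3.88% and 4.89% of all genes. Of 19 endothelial and mural markers, 16 were above 0, as were 10000 of all 19147 genes, and the median was 0.070. No member had an unadjusted p under 0.05. The oligodendrocyte list had a median of -0.001, with 7 of 14 members above 0. The myelin genes Mag and Mobp were at 0.55 ± 0.16 (adjusted p = 0.319) and 0.66 ± 0.26 (0.491), and Gpr17, a receptor gene of immature oligodendrocytes, at -0.22 ± 0.07 (0.366). Mobp read 7.82, 8.47 and 8.25 in wild type and 9.36, 8.79 and 8.39 in Smo/Smo, which overlapped. Purkinje cell markers had a median of -0.027, with Lhx5 at -0.31 ± 0.08 (adjusted p = 0.199), and Bergmann glia and astrocyte markers -0.009. GABAergic interneuron markers had a median of -0.034.

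**Figure D5:**
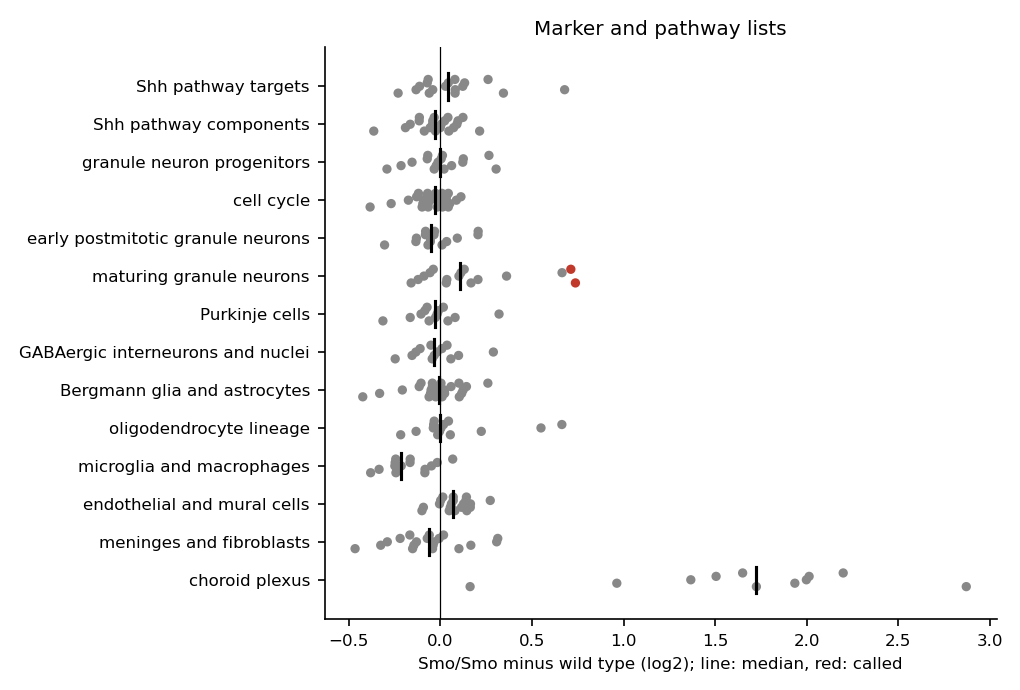
Difference between Smo/Smo and wild type (horizontal axis, log2) of the measured members of 14 marker and pathway lists; each point is a gene, black lines are medians, and red points are called genes. Choroid plexus markers lie furthest to the right, with a median of 1.73 that was 0.989 without wild type replicate 3, and Grin2c and Pcp4l1 are the red points.

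No member of the remaining lists was called, beside 0.371% of all genes. Among Notch genes Hes5, an effector in progenitors and glia, was at -0.54 ± 0.12 (adjusted p = 0.166) and Hes1 at 0.23 ± 0.06 (0.247), and in the BMP pathway Bmp2 was at -0.43 ± 0.16 (0.47) and Id2 at 0.17 ± 0.06 (0.404). Usp18, a gene of the interferon response, was at -0.54 ± 0.23 (adjusted p = 0.551), and the stress-induced factor gene Atf3 at -0.45 ± 0.10 (0.169). List medians lay between -0.109 for immediate early and stress genes and 0.064 for ribosome and translation genes, with 0.017 for Wnt, -0.021 for cholesterol synthesis, 0.047 for glycolysis and hypoxia, -0.003 for synaptic, -0.043 for migration and axon guidance and -0.037 for p53 and apoptosis genes. The housekeeping genes had a median of 0.054.

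Some of the largest differences between the groups were not called because the arrays of a group were far apart. Ttr, Kcne2 and Folr1 were among those in which wild type replicate 3 lay far below the other wild type arrays. Xist and Eif2s3y varied with the sex of the mice. In Crabp1 and Mir100hg it was the Smo/Smo arrays that were far apart. All these genes were chosen after their values were seen. Crabp1, which encodes a carrier of retinoic acid, read 7.45, 7.62 and 7.21 in wild type, 8.94, 11.79 and 10.93 in Smo/Smo, and 6.97, 8.48 and 7.10 in SmoA2. Every Smo/Smo array was above the wild type arrays, and the difference of 3.13 ± 0.65 had an adjusted p of 0.128. Mir100hg, the host gene of a microRNA cluster, read 8.26, 8.41 and 8.30 in wild type, 7.42, 5.89 and 5.51 in Smo/Smo, and 8.33, 8.25 and 8.08 in SmoA2 (-2.05 ± 0.39, adjusted p = 0.0964). All 3 Smo/Smo arrays lay below the other 6, by unequal amounts.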

How the data were processed

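Total RNA was labelled and hybridised to a custom Affymetrix array, per the labels' protocols. The authors deposited probe set intensity values on a linear scale, summarised by RMA per the submitters' processing notes, with the version and genome build not given in the sources used here. The log2 of each deposited intensity was taken. Of 38385 probe sets, 24478 had 1 gene symbol in GEO's platform annotation, 65 several and 13842 none. They stood for 19147 genes, each read from the probe set with the highest mean over the 9 arrays. RefSeq for GRCm38.p6 placed 18911 of them on a chromosome. A limma 3.58.1 model in R 4.3.3 (lmFit, eBayes) held all 9 arrays with a mean per group, leaving 6 residual degrees of freedom per gene, and p-values were adjusted by Benjamini-Hochberg over all genes. The error given with a log2 difference is its standard error in this model. SmoA2 shares the wild type arrays in one comparison and the Smo/Smo arrays in the other. Genes named were Smo, Gli1, Ptch1, Neurod2, the 15 largest rises and 15 largest falls among called genes with non-overlapping groups and a full symbol, called genes of chromosome 14, called list members, 3 members per list with the smallest p, and the 5 calls differing most from SmoA2. Members, lists and rules were chosen with earlier results of these data known. The number of arrays limits the precision. The pipeline was tested on simulated data, and plots were made in matplotlib 3.10.9 (Python 3.11.15). Replicates are separate mouse codes; whether littermates were used is not stated.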

Additional observations from a re-analysis of the deposited data

Results flagged for a closer look

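Of the 71 genes called in Smo/Smo, 50 also differed between SmoA2 and Smo/Smo in the same limma model (adjusted p under 0.05), 26 of the rises and 24 of the falls, where 2.56% of all genes were called between the mutants. Both comparisons use the Smo/Smo arrays, so a gene that stands apart in these arrays tends to be called in both, and the direct differences are given with each gene. Among 13907 probe sets without a single gene symbol, which no comparison of genes used, 30 were called in Smo/Smo against wild type (0.216%). The probe set 100103890_TGI_at read 9.41, 9.38 and 9.42 (log2 intensity) in wild type, 4.94, 5.71 and 5.67 in Smo/Smo and 9.72, 9.71 and 9.71 in SmoA2. Its log2 fold change in Smo/Smo was -3.96 ± 0.17 (limma adjusted p = 3.6e-06), with the Smo/Smo mean in the background range. The probe set 100082820_TGI_at had the largest rise among them, 1.96 ± 0.12 (adjusted p = 7.3e-05). The test for a single outlying array was not run, since it needs groups of 4 or more.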

How the results depend on the processing

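Of 71 calls in Smo/Smo against wild type, the count became 162 with array weights, 42 with only the 6 arrays compared, 19 at an adjusted p under 0.01, 42 with sex as a covariate, 38 without the third array of both wild type and SmoA2, and 43 without chromosome 14 genes. With 1 array left out it ranged from 21 to 65. For SmoA2 against wild type (515) it was 782 with a filter of log2 6 on 3 arrays, 235 with only the arrays compared, 187 at 0.01 and 215 without both arrays, and 234 to 445 with 1 array left out. For SmoA2 against Smo/Smo (490) it was 799 with the filter, 795 with an intensity trend and robust eBayes, 231, 142 and 296 under the same settings, and 170 to 467 with 1 array left out. Other settings gave 55 to 106 calls in Smo/Smo. Read from the probe set with the next highest mean, 5 genes named by the rule above changed sign and lost their call: Mid1 (-0.094), Diaph3 (-0.022), Clec16a (-0.094), Wdcp (0.111) and Fam124a (0.125). Those of Clec16a and Wdcp lay in the background range, so they do not bear on these genes. Outside that rule, the called genes Ift46 (-1.006) and Rprd2 (-0.077) also changed sign on their other probe set. Besides those 5 sign changes by the rule, 219 values lost a call with their direction kept and 21 gained one, over all alternatives and named genes. The cause was not tested. By construction, a fit with an array left out holds fewer mice for the same genes, and one without chromosome 14 genes cannot hold their 18 calls. Signal near background limits genes read below 5.57 log2. No paired analysis was possible because the labels give the groups no shared replicate numbers.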

Other observations

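Genes of noradrenergic neurons, chosen after their values were seen, varied within groups. Slc6a2, the noradrenaline transporter gene, read 8.77, 10.25 and 8.12 (log2 intensity) in wild type, 6.24, 6.68 and 7.74 in Smo/Smo, and 9.51, 9.97 and 7.04 in SmoA2 (-2.16 ± 0.79 in Smo/Smo against wild type, limma adjusted p = 0.473). Dbh, which encodes the enzyme that makes noradrenaline, read 6.23, 7.81 and 6.14 in wild type, 5.83, 6.01 and 5.98 in Smo/Smo, and 7.01, 7.48 and 5.71 in SmoA2. Th, the gene of the first enzyme of that pathway, read 5.66, 6.35 and 5.53 in wild type, 5.68, 4.65 and 5.34 in Smo/Smo, and 5.75, 6.30 and 5.59 in SmoA2. Replicate 2 was the highest array for all 3 genes in wild type and in SmoA2, and replicate numbers do not pair the mice. None of the 3 was called.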
